A study of Saccharomyces cerevisiae with 6 samples.

Results

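The 57 small ribosomal subunit protein genes of *Saccharomyces cerevisiae*, budding yeast, were taken from the 7032 genes of the count table by name and function. They are *RPS0A* to *RPS31* plus *ASC1*, and the rule uses no measured value. They encode 33 proteins, 24 of them from a pair of paralogous genes (an A and a B copy) and 9 from a single gene. RNA made in a short pulse was sequenced (TT-seq, transient transcriptome sequencing) in 3 wild-type and 3 *dbp2Δ* libraries, to ask how loss of Dbp2, a DEAD-box RNA helicase, changes transcription of genes and of the antisense transcripts opposite them. The wild-type strain was listed as BY4741 (*MATa his3Δ1 leu2Δ0 met15Δ0 ura3Δ0*). The deletion strain was *MATα*, carried *KanR* in place of *DBP2* with *ura3Δ0*, *leu2Δ0* and *his3Δ0*, and was wild type for *TRP1*, *MET* and *LYS*. Both strains carried the empty *URA* vector pRS426 and were grown without uracil in 2% glucose at 30°C to an OD600 of 0.5, then given 0.32 mg/ml 4-thiouracil for 10 min. Mating type and the nutritional markers differ between the strains along with *DBP2*, so their parts in any difference cannot be told apart. Each strain has 3 replicates, described in the study as biological replicates, and every p-value measures the spread between these libraries.

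The small (40S) subunit carries the 18S rRNA, binds the mRNA and reads its codons. Its proteins fall into a head and a body, and the mRNA runs through the channel between them. In yeast, ribosomal protein genes are among the most heavily transcribed genes of RNA polymerase II. Rap1 binds many of their promoters and brings in Fhl1 and Ifh1, Sfp1 adds to their transcription, and all of this follows nutrient signals through TORC1 and protein kinase A. An unusually large share of them hold introns, and most exist as 2 copies left by an ancient genome duplication.

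In the R64 annotation of RefSeq, all 57 genes were found, on 14 chromosomes. Their coding sequences ran from 171 to 960 bp (median 432 bp). An intron of 256 to 551 bp interrupts the coding sequence of 37 genes. Both copies have one in 17 pairs, neither has one in 6 pairs, and in the *RPS22* pair only *RPS22B* has one. The 500 bases before each start codon were searched on both strands for ACCCNNACA, the core letters of the Rap1 site of ribosomal protein promoters. It was present in 18 of 57 small subunit genes (31.6%) and in 36 of 81 large subunit genes (44.4%), against 328 of 6000 protein-coding genes (5.47%). The 22 matches lay 190 to 498 bases before the start codon, 18 of them on the strand of the gene, and 4 genes had a pair of matches. The windows shown are those of the gene with the largest change between strains (*RPS13*), of another called gene with its match on the opposite strand (*RPS10B*), of a gene whose protein neighbours the mRNA channel (*RPS2*), and of both copies of *RPS16*, which hold 1 match on each strand. Each is read 5′ to 3′ on the strand of the gene in R64, with the match in capitals.
RPS13, chrIV:579218-579246, plus strand: cataaagtagACCCAAACAtttttaaaaa
RPS10B, chrXIII:732214-732242, plus strand: acatcgcgcaTGTGTGGGTgtatatgccc
RPS2, chrVII:277219-277247, plus strand: tttaagctagACCCATACAcccgctctat
RPS16A, chrXIII:551520-551548, plus strand: aaactataaaTGTATGGGTgcgtaatgta
RPS16A, chrXIII:551611-551639, plus strand: acatattggcACCCATACAttataaaatc
RPS16B, chrIV:308196-308224, minus strand: taacaggaaaTGTATGGGTcacatattaa
RPS16B, chrIV:308133-308161, minus strand: cagaaaaaacACCCATACAtgttgaaaaa

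The paralogs are close copies, so how well reads tell them apart bears on every value for a single copy. Coding identity ran from 84.3% to 99.2% (median 92.7%), and in 9 of 24 pairs the encoded proteins are identical. The first 30 coding bases of 2 pairs show the range, with differing bases in capitals. The *RPS28* copies differ at 6 of these bases and share no stretch of 50 bases anywhere in their coding sequences, whereas the *RPS6* copies differ at 1 base and share 72.1% of their 50-base windows.
RPS28A, chrXV:648978-649007, minus strand: atggatAACaaAaccccagtcacTttagcC
RPS28B, chrXII:673131-673160, plus strand: atggatTCTaaGaccccagtcacCttagcT
RPS6A, chromosome XVI, minus strand, spliced: atgaagttgaacatttcttacccagtTaac
RPS6B, chromosome II, minus strand, spliced: atgaagttgaacatttcttacccagtCaac
In 9 pairs the copies share no 50-base window, and in 4 pairs, *RPS4*, *RPS6* and *RPS24* among them, they share more than 30% of them. None of the sources read says how reads that match both copies were counted.

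Total gene counts ran from 11177517 to 13134963 in the wild-type libraries and from 6968216 to 8659542 in the *dbp2Δ* libraries. *DBP2* had 10976, 11136 and 11213 counts in wild type and 0, 0 and 2 in *dbp2Δ*. *LYS2* had 1, 0 and 1 counts in wild type and 4477, 4710 and 5894 in *dbp2Δ*, although the genotype listed for the wild type names no *lys2* mutation. Every small subunit gene was well covered, with at least 720 raw counts in each library. 1 library stood apart from its group: the small subunit genes took 1.78%, 1.73% and 3.45% of the counts in wild-type replicates 1, 2 and 3, and 3.58%, 3.55% and 3.21% in the *dbp2Δ* libraries. The large subunit genes split the same way, at 2.52%, 2.55% and 4.74% in wild type and 4.59% to 5.09% in *dbp2Δ*, and the ratio of small to large subunit counts stayed between 0.681 and 0.727 in all 6 libraries. Wild-type replicate 3 was above replicates 1 and 2 at 57 of 57 small subunit genes, by a median of 1.98-fold (range 1.46 to 2.78). Over all genes tested its median log2 difference from replicates 1 and 2 was -0.02. What set this library apart was not tested, and results are given with and without it. Counts were scaled with TMM factors (trimmed mean of M values) to a common library of 9883728 counts and are called normalized counts. They are relative to the other genes of the library, and fewer cells in a given state and less RNA per cell cannot be told apart.

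Most small subunit genes were higher on average in *dbp2Δ*, but with all 6 libraries few passed the test. With edgeR's quasi-likelihood test and Benjamini-Hochberg adjustment over 5936 genes, 12 of 57 were called higher at an adjusted p under 0.05 (21.1%), 0 were called lower and 45 were not called. Over all genes tested, 20.0% were called higher and 21.9% lower, so the share called higher is near the background. At an unadjusted p under 0.05, 18 small subunit genes were higher and 0 lower, and the share of all genes at this threshold was not counted. DESeq2 called 18 higher (background 21.1%) and 0 lower. The estimate was above 0 for 55 of 57 genes, with a median log2 fold change of 0.53 (range -0.24 to 1.34), against -0.01 over all genes tested. The *dbp2Δ* libraries lay above all 3 wild-type libraries at 15 genes (26.3%, against 27.7% of all genes tested) and above wild-type replicates 1 and 2 at 56 genes. Wild-type replicate 3 exceeded every *dbp2Δ* library at 22 genes. For the counts of 56 and 22 genes, the matching shares of all genes were not taken. The median coefficient of variation was 42.5% in wild type and 7.66% in *dbp2Δ*.

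**Figure D1:**
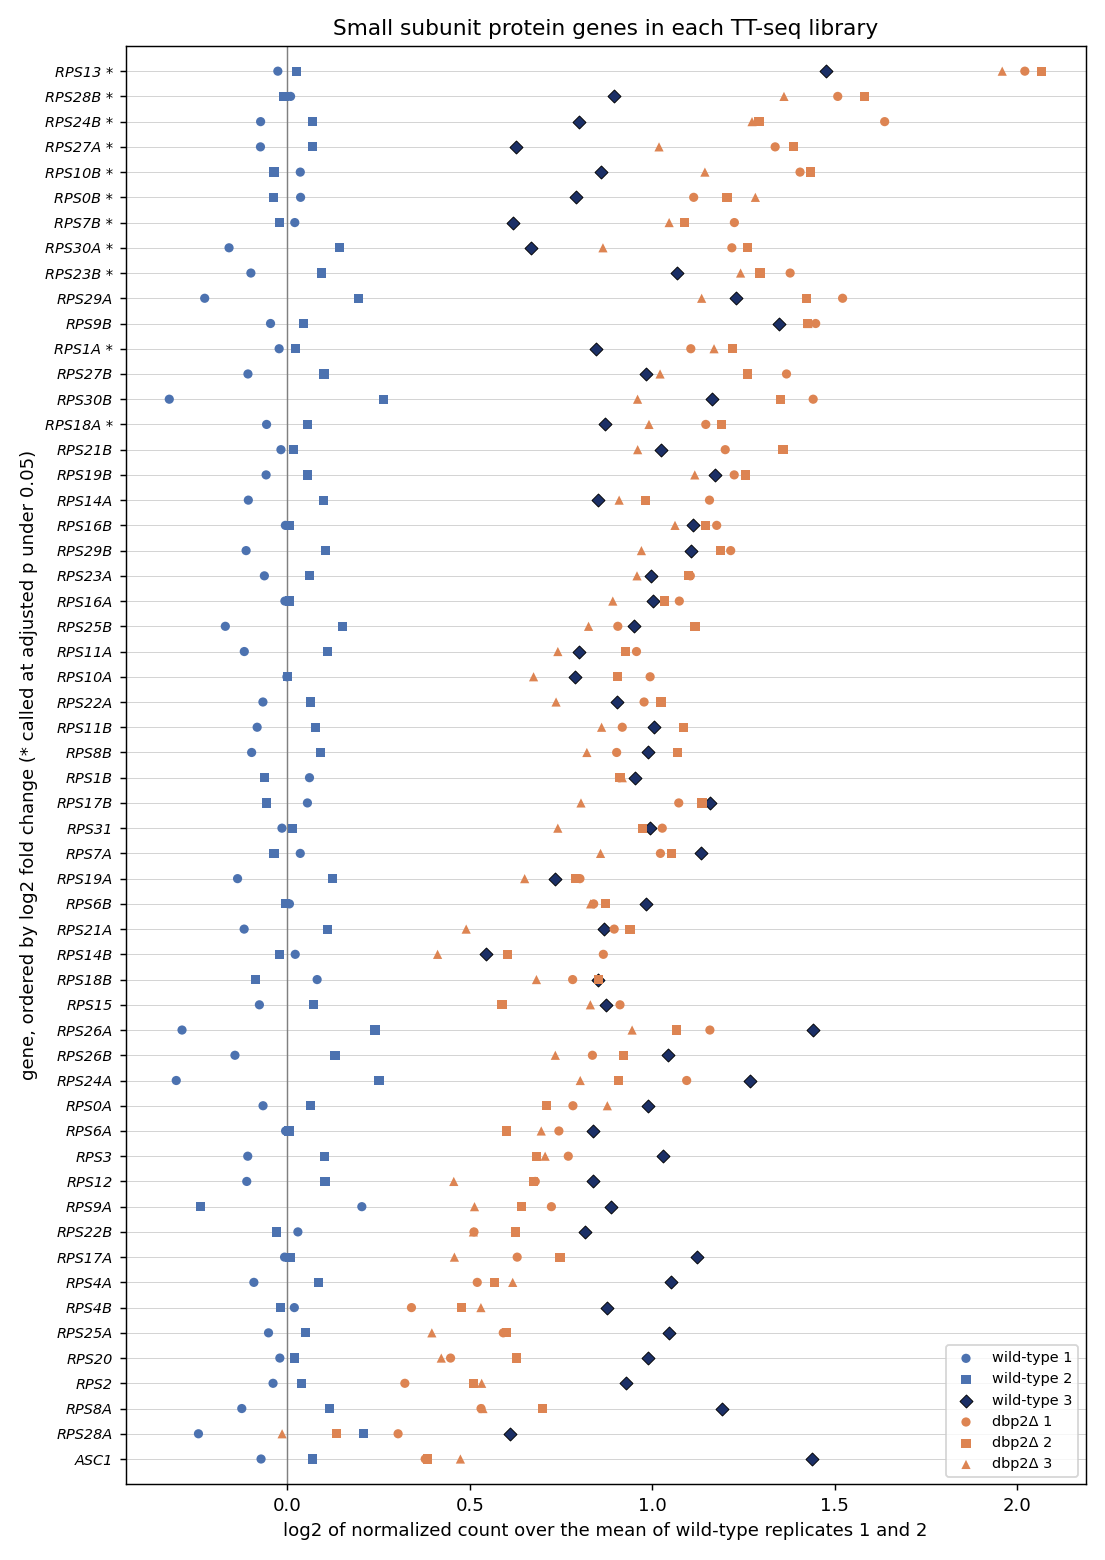
Normalized count of each small subunit gene in each library, as log2 over the mean of wild-type replicates 1 and 2, for 56 of the 57 genes, with 1 row per gene ordered by log2 fold change and 1 point per library. Asterisks mark called genes. Wild-type replicate 3 sits near the *dbp2Δ* libraries at most genes and above all 3 of them at 22 genes, including *ASC1*.

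Wild-type replicate 3 decided how many genes were called. Without it, 56 of 57 small subunit genes were called higher (98.2%, against 25.7% of all genes tested), all but *RPS28A*, and the median log2 fold change was 0.94. With limma-voom, which gave that library the lowest quality weight, 49 were called (background 27.3%), and at an adjusted p under 0.01 edgeR called 2 (background 9.21%). Without wild-type replicate 1 or 2 the count was 7 (background 20.7%) or 4 (14.0%), with medians of 0.35 and 0.39. Without *dbp2Δ* replicate 1, 2 or 3 it was 4 (11.7%), 4 (11.0%) or 6 (11.9%). No small subunit gene was called lower in any of these fits. *RPS7B*, *RPS24B*, *RPS27A* and *RPS28B* were called with all libraries and in each of the 6 fits that left out a library. The share of all genes called in every one of these fits was not taken, so this count has no background beside it. Measured against wild-type replicates 1 and 2 alone, the *dbp2Δ* mean was higher by a median of 0.94 on the log2 scale, and against wild-type replicate 3 alone the median was 0.00 (range -1.02 to 0.63). Across the 57 genes, the size of the replicate 3 excess and the fold change between strains had a Spearman rho of -0.11, a description over genes that share libraries. With the *dbp2Δ* mean measured against wild-type replicates 1 and 2 alone, the rho was 0.16. Wild-type replicate 3 enters both quantities in the first value, and replicates 1 and 2 enter both in each. Neither value can therefore show whether the excess and the strain difference are related.

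**Figure D2:**
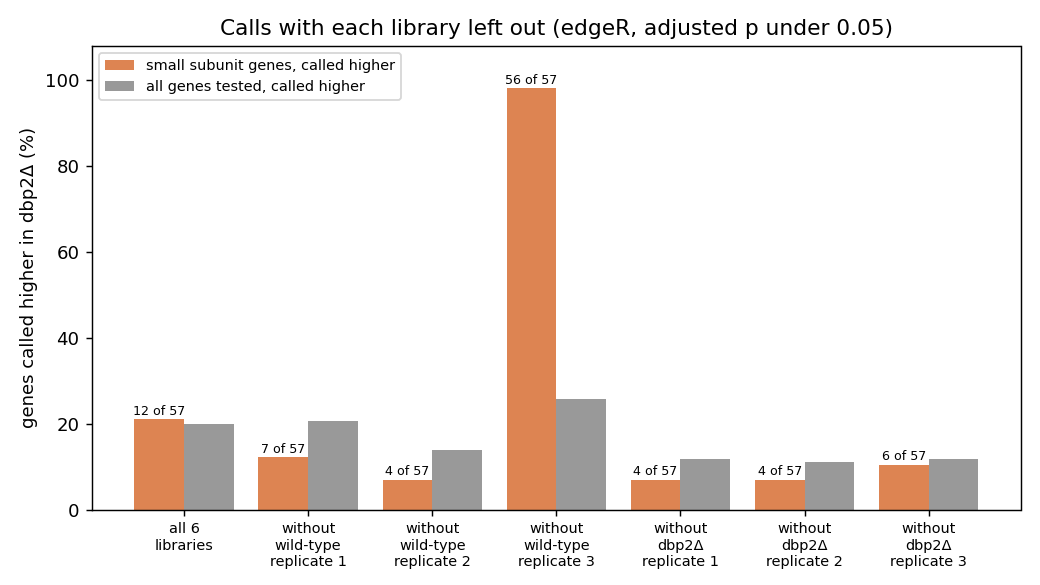
Percent of genes called higher in *dbp2Δ* (edgeR, adjusted p under 0.05) with all 6 libraries and with each library left out, for the 57 small subunit genes and for all genes tested. The small subunit share is 98.2% without wild-type replicate 3 and 21.1% or less in the other fits.

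The body protein uS15 is encoded by the single gene *RPS13* (YDR064W, chromosome IV, 579458 to 580452, plus strand, 1 intron of 539 bp), which had the largest change. It had 2291, 2374 and 6490 normalized counts in wild type and 9470, 9782 and 9072 in *dbp2Δ*. Every *dbp2Δ* library was above every wild-type library, and wild-type replicate 3 lay between the other libraries of its strain and *dbp2Δ*. The log2 fold change was 1.34 ± 0.40 (SE, n = 3 per strain; edgeR adjusted p = 0.0295). It was 2.01 without wild-type replicate 3, and the call was lost without any other library (adjusted p 0.0562 to 0.0835).

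Next came *RPS28B* (YLR264W, chromosome XII, 673131 to 673334, plus strand, no intron), which codes for eS28 in the head. In yeast the Rps28 protein acts on the 3′ end of *RPS28B* mRNA to promote its decay, a feedback that *RPS28A* mRNA lacks. *RPS28B* had 700.3, 691.7 and 1295 normalized counts in wild type and 1980, 2082 and 1788 in *dbp2Δ*, so the strains did not overlap. Its log2 fold change was 1.12 ± 0.25 (SE, edgeR adjusted p = 0.0105). *RPS24B* (YIL069C, chromosome IX, 231553 to 232369, minus strand), a copy of the eS24 gene of the body whose intron of 409 bp follows the start codon, had 1730, 1910 and 3169 against 5661, 4459 and 4400. It rose by 1.09 ± 0.25 on the log2 scale (SE, edgeR adjusted p = 0.0115), again with no overlap.

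*RPS27A* (YKL156W, chromosome XI, 158613 to 159212, plus strand, intron of 351 bp) codes for eS27, a zinc-binding protein of the body, and had the smallest adjusted p. It had 1636, 1807 and 2659 normalized counts in wild type and 4349, 4503 and 3488 in *dbp2Δ*, a log2 fold change of 1.02 ± 0.21 (SE, edgeR adjusted p = 0.00814). *RPS7B* (YNL096C, chromosome XIV, 443398 to 444315, minus strand, intron of 345 bp), for eS7 of the body, had 1697, 1649 and 2568 against 3912, 3558 and 3456. Its log2 fold change was 0.89 ± 0.19 (SE, edgeR adjusted p = 0.00963). In both genes wild-type replicate 3 was well below the lowest *dbp2Δ* library.

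*RPS10B*, for eS10 of the head, had 1392, 1324 and 2463 normalized counts in wild type and 3597, 3668 and 3002 in *dbp2Δ* (log2 fold change 0.99, edgeR adjusted p = 0.0170). *RPS0B*, for uS2, a body protein needed for the last steps of 40S maturation in yeast, had 5116, 4862 and 8640 against 10797, 11503 and 12140 (log2 fold change 0.89, edgeR adjusted p = 0.0205). Both sets of libraries were apart, but each call was lost in some fits that left out a library other than wild-type replicate 3. Further called genes were *RPS30A* (0.87), *RPS23B* (0.86), *RPS1A* (0.83) and *RPS18A* (0.76), in log2 fold change, with edgeR adjusted p-values from 0.0190 to 0.0488.

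Of the genes for proteins near the mRNA channel and the decoding site, *RPS3*, *RPS2* and *RPS15* were not called with all 6 libraries. *RPS3*, for uS3 of the head at the channel entry, had 5218, 6034 and 11478 normalized counts in wild type and 9594, 9032 and 9181 in *dbp2Δ*, with wild-type replicate 3 highest of all 6 (log2 fold change 0.29, edgeR adjusted p = 0.439). *RPS2*, for uS5 of the body at the entry, had 9023, 9520 and 17629 against 11591, 13202 and 13412 (log2 fold change 0.08, edgeR adjusted p = 0.826). At *RPS2* too, the highest library was wild-type replicate 3, and the *dbp2Δ* libraries lay between it and the other wild-type libraries. *RPS15*, for uS19 of the head near the decoding site, had 3137, 3479 and 6066 against 6224, 4974 and 5884, with overlap (log2 fold change 0.43, edgeR adjusted p = 0.210). Without wild-type replicate 3, *RPS2* reached 0.46 (edgeR adjusted p = 0.0135) and *RPS3* reached 0.72 (edgeR adjusted p = 0.00151).

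At the genes described next, which had estimates close to or below 0, wild-type replicate 3 was the highest of the 6 libraries. *ASC1* (YMR116C, chromosome XIII, 499456 to 500688, minus strand), the yeast counterpart of RACK1, sits on the head and links the subunit to signaling and ribosome quality control. Its intron holds the small nucleolar RNA gene *SNR24*. It had 6139, 6767 and 17483 normalized counts in wild type and 8386, 8422 and 8966 in *dbp2Δ*. Wild-type replicate 3 was above every *dbp2Δ* library, and the log2 fold change of -0.24 was not past the test (SE 0.38, edgeR adjusted p = 0.635). Without that library the value was 0.41 (edgeR adjusted p = 0.0144). *RPS8A* had 2155, 2544 and 5363 against 3394, 3812 and 3407 (log2 fold change 0.08, edgeR adjusted p = 0.859). *RPS28A* had 1990, 2722 and 3598 against 2907, 2586 and 2332. It was the one gene whose *dbp2Δ* libraries did not all exceed wild-type replicates 1 and 2 (log2 fold change -0.09, edgeR adjusted p = 0.761).

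Grouped by place in the subunit, 4 of 23 head genes (17.4%) and 8 of 34 body genes (23.5%) were called higher, around the background of 20.0%, with median log2 fold changes of 0.52 and 0.53. Of the 37 genes with an intron in the coding sequence, 9 were called (24.3%, median 0.56), and of the 20 without, 3 (15%, median 0.47). Genes with the Rap1-type match were called in 5 of 18 cases (27.8%, median 0.55) and those without in 7 of 39 (17.9%, median 0.52). All 3 splits left medians on the same side of the -0.01 of all genes tested, and differences within a split were not tested. In 4 places a small subunit gene lies head to head with a large subunit gene, with 630 to 720 bp between their start codons. These are *RPS15* with *RPP2A*, *RPS16A* with *RPL13B*, *RPS16B* with *RPL13A*, and *RPS22A* with *RPL39*. No gene of these 4 pairs was called (log2 fold changes 0.15 to 0.88, edgeR adjusted p 0.0895 to 0.555).

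The balance between paralogs is free of library scaling, because both copies are read in the same library. The log2 ratio of A to B counts in the 3 *dbp2Δ* libraries lay wholly outside its wild-type range in 15 of 24 pairs (62.5%). The same was true of 26 of 35 pairs of large subunit genes (74.3%), so such shifts are not particular to the small subunit. The ratio moved toward the B copy in 11 of the 15 pairs and toward the A copy in 4, *RPS1*, *RPS18*, *RPS22* and *RPS29*. The absolute shift had a median of 0.31 over the 24 pairs. Each pair was compared by a two-sided exact permutation test, in which 3 against 3 libraries cannot go below p = 0.1, so no pair can pass 0.05 singly or after adjustment. In 10 pairs 1 copy was called higher in *dbp2Δ*, and in 0 pairs were both. These counts depend on the cutoff, as at *RPS23B* and *RPS23A* (log2 fold changes 0.86 and 0.64, edgeR adjusted p = 0.0488 and 0.0975). Without wild-type replicate 3, both copies were called in every pair but *RPS28*. The same count was not taken for large subunit pairs.

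The *RPS28* pair shifted most. Its log2 ratio of A to B was 1.51, 1.98 and 1.47 in wild type and 0.55, 0.31 and 0.38 in *dbp2Δ*, a difference of -1.24 (exact permutation p = 0.1). The A copy thus gave 74.0%, 79.7% and 73.5% of the pair's counts in wild type and 59.5%, 55.4% and 56.6% in *dbp2Δ*. The ratio in wild-type replicate 3 was the lowest of its strain and close to that of replicate 1. These copies share no 50-base window, as their first bases above show.

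*RPS9*, for uS4 of the body, shifted by -0.64, from ratios of -0.56, -1.09 and -1.27 to -1.54, -1.59 and -1.72. *RPS24* shifted by -0.61, from 0.13, 0.54 and 0.83 to -0.18, -0.02 and -0.11, which turned the order of the copies. Both pairs moved toward B, and in each the wild-type libraries were spread more widely than the *dbp2Δ* libraries. *RPS0* shifted by -0.48, from -0.89, -0.68 and -0.59 to -1.11, -1.28 and -1.19. *RPS25*, for eS25 of the head, shifted by -0.46, from 0.97, 0.75 and 0.95 to 0.54, 0.34 and 0.42. In the *RPS0* and *RPS25* pairs the wild-type SDs of the ratio were smaller, at 0.15 and 0.12, against 0.37 for *RPS9* and 0.35 for *RPS24*. At the other end, *RPS30* (0.02) and *RPS4* (0.06) kept nearly equal mean ratios, with overlapping libraries in each.

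**Figure D3:**
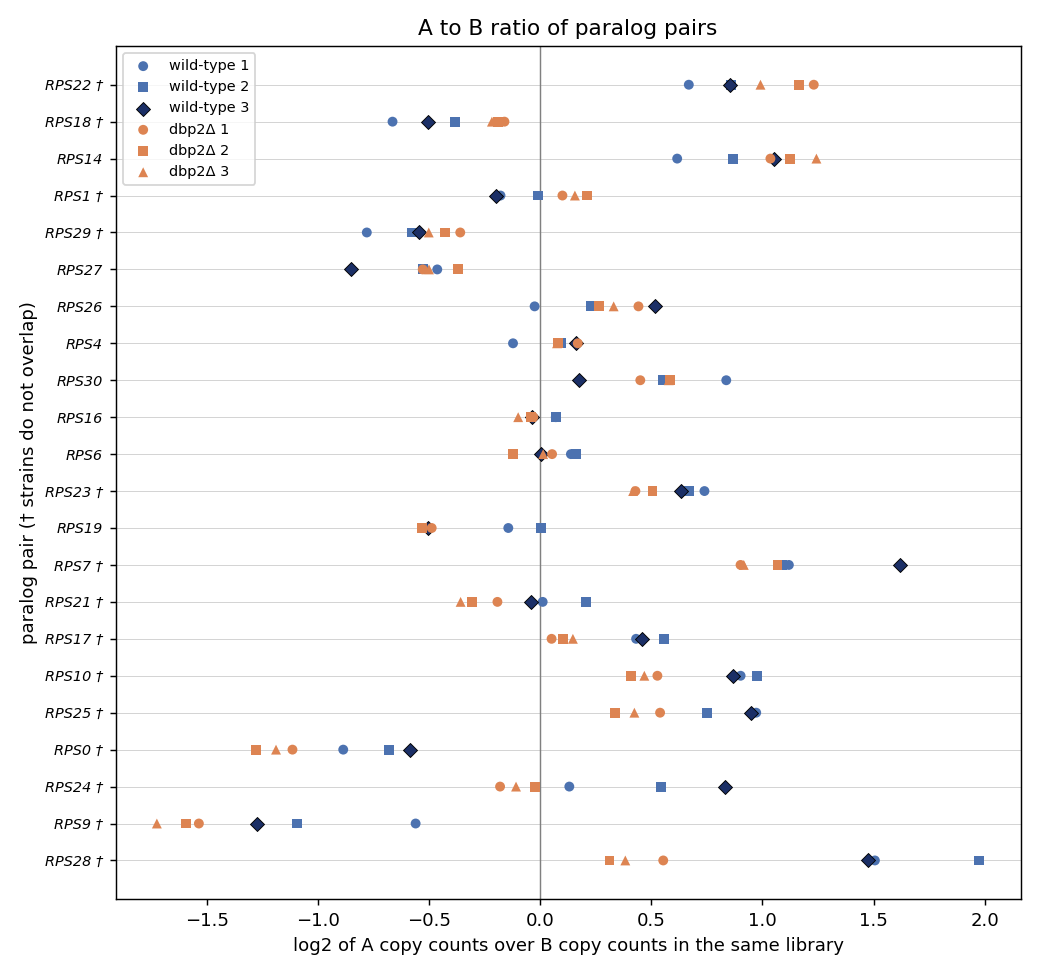
Log2 of A over B counts for 22 of the 24 paralog pairs, 1 point per library, ordered by the difference between strains. Daggers mark the pairs whose *dbp2Δ* libraries lie outside the wild-type range. The *RPS28* pair, at the bottom, shifted by -1.24.

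Shifts were seen in pairs with and without shared 50-base windows, and these groups were not tested against each other. In the 9 pairs that share no 50-base window, 7 did not overlap and the median absolute shift was 0.34. In the 11 pairs that share up to 30% of windows these values were 6 and 0.29, and in the 4 pairs above 30% they were 2 and 0.26. How shared reads were assigned is not stated, so a shift in the last group, *RPS24* included, is uncertain in size.

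Levels were compared between genes per kb of coding sequence, as normalized counts averaged over all 6 libraries. It is not known whether reads from introns were counted, which makes levels of intron genes uncertain. Single genes ran from 4408 for *RPS14B* to 30693 for *RPS31*, a 6.96-fold range. Summed over both copies, the 33 proteins ran from 9750 for *ASC1* to 30693 for *RPS31*, a 3.15-fold range. Genes of single copy had a median of 11696 in wild type and 20071 in *dbp2Δ*, paralogs had 7836 and 11070 per copy, and paralog pairs had 14789 and 21868 in sum. In both strains the median of pair sums was nearer to that of single genes than the median of copies was.

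*RPS31* codes for a fusion of ubiquitin and eS31 of the head. It had 18865, 19252 and 37927 normalized counts per kb in wild type and 38854, 37400 and 31861 in *dbp2Δ*. Wild-type replicate 3 was within the *dbp2Δ* range. The gene next in order, *RPS20* (uS10 of the head), averaged 23689 per kb, and *RPS12* (eS12, at the beak of the head) 23006. In wild type the means of the 3 genes were 25348 ± 10896 for *RPS31*, 22930 ± 9824 for *RPS20* and 20850 ± 7610 for *RPS12* (SD, n = 3), and these SDs overlap. Within each of the 6 libraries *RPS31* was above both, while *RPS20* and *RPS12* changed places between libraries. At the low end, *RPS14B*, *RPS9A*, *RPS7B* and *RPS22B* averaged 4408 to 5572 per kb. In yeast the transcripts of *RPS14B*, *RPS9A* and *RPS22B* are each known to be held down through their introns. Among proteins, the sum of the *RPS27* copies was the highest in *dbp2Δ*, with 15620, 17715 and 29959 per kb in wild type and 42647, 41451 and 33812 in *dbp2Δ*. In 15 of 24 pairs the A copy had the higher mean level per kb, and in 14 pairs the order of the copies was the same in all 6 libraries. Levels of the 57 genes in wild type and *dbp2Δ* had a Spearman rho of 0.79 across genes.

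**Figure D4:**
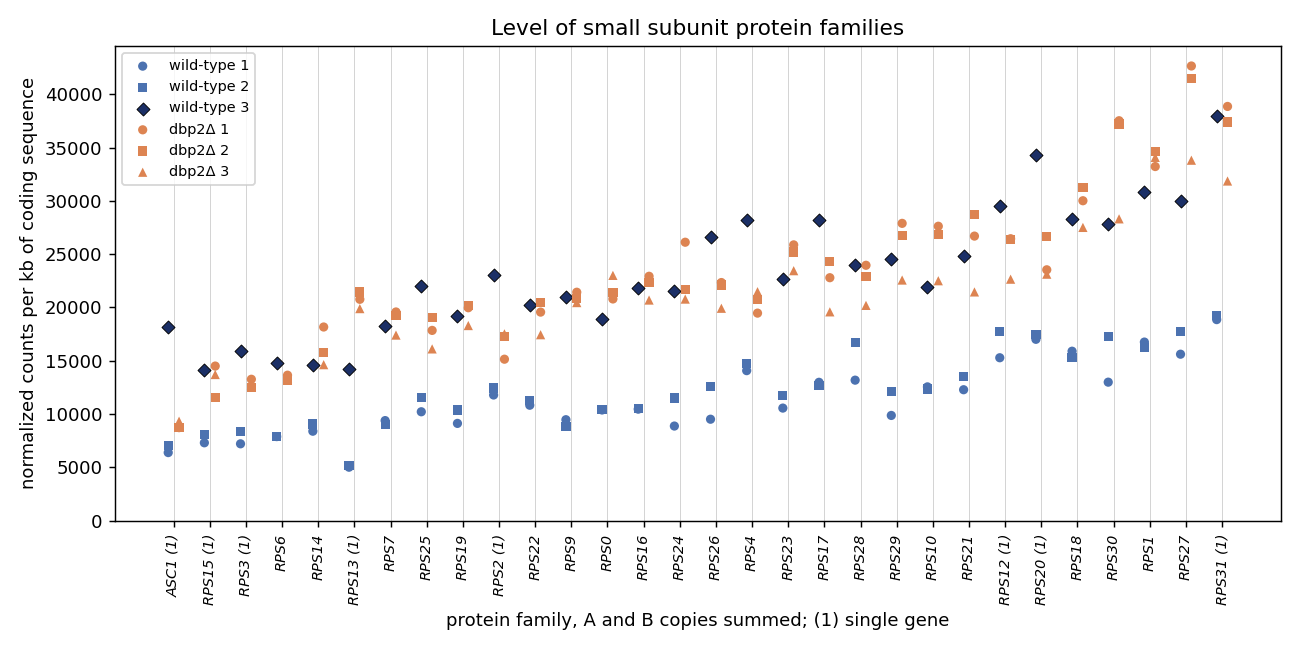
Level of 30 of the 33 small subunit proteins in normalized counts per kb of coding sequence, copies summed, 1 point per library, ordered by the mean of all libraries. Values run from *ASC1* (mean 9750 counts per kb) to *RPS31* (mean 30693 counts per kb), and wild-type replicates 1 and 2 are the lowest points for most proteins.

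Among the *dbp2Δ* libraries, replicate 3 was the lowest at 43 of 57 genes, and its deficit followed gene length. Its log2 difference from *dbp2Δ* replicates 1 and 2 had a Spearman rho of 0.81 with coding length across the 57 genes. The median difference was -0.33 for the 10 genes under 300 bp, -0.17 for the 33 genes from 300 to under 600 bp and 0.01 for the 14 longer genes. Other genes of the same lengths had medians of -0.28, -0.14 and 0.03. In these other genes, wild-type replicate 3 had median log2 differences from wild-type replicates 1 and 2 of 0.31, 0.07 and -0.06, highest for short genes. At the small subunit genes the same medians were 0.94, 0.99 and 0.97, with little change by length. The size of the RNA fragments in each library was not examined. What made short genes lower in *dbp2Δ* replicate 3, or higher in wild-type replicate 3, was not tested. The fold change between strains itself had a Spearman rho of -0.27 with coding length.

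**Figure D5:**
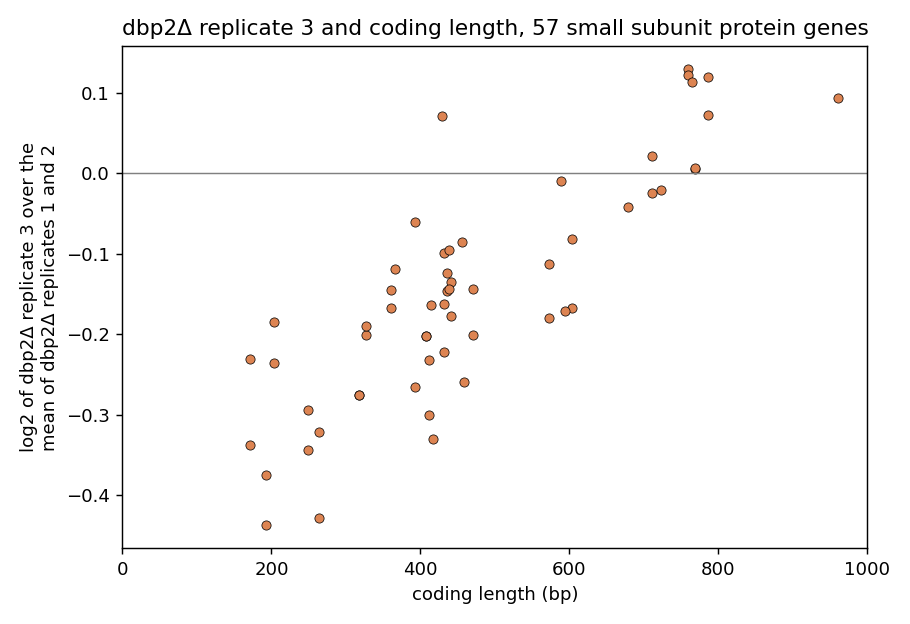
Log2 of *dbp2Δ* replicate 3 over the mean of *dbp2Δ* replicates 1 and 2, against coding length in bp, 1 point per small subunit gene (n = 57). The shortest genes lie lowest, and genes of 600 bp or more lie near 0.

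Antisense transcripts overlap 3 of the 57 genes in the deposited antisense table, and only that of *RPS29A* was called. The copies of *RPS29* code for uS14, a zinc-binding protein of the head. The transcript opposite *RPS29A* (chromosome XII, 898146 to 898848, minus strand, 703 bp) covers all 171 bp of the gene. It had 701.2, 902.6 and 1878 normalized counts in wild type and 2960, 2708 and 2287 in *dbp2Δ*. The libraries did not overlap, and the log2 fold change was 1.19 ± 0.35 (SE, edgeR adjusted p = 0.0268 over 2167 antisense transcripts, of which 23.4% were called higher). *RPS29A* itself had 621.8, 833.2 and 1706 against 2089, 1951 and 1598, with wild-type replicate 3 inside the *dbp2Δ* range (log2 fold change 0.83, edgeR adjusted p = 0.0871). The transcripts opposite *RPS8B* and *RPS26A* overlap their genes by only 5 bp and 1 bp and had log2 fold changes of 0.54 and 0.32 (edgeR adjusted p = 0.118 and 0.497). Without wild-type replicate 3 all 3 were called, and the *RPS29A* call was lost without wild-type replicate 2 (adjusted p = 0.0875) or any *dbp2Δ* replicate. The libraries were made with a directional kit, but whether the counting used strand is not stated, so sense and antisense reads of *RPS29A* cannot be told apart with certainty.

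Genes that act on the small subunit genes or their products were taken as separate lists. Of 28 regulators of ribosomal protein genes, 7 were called higher (25.0%) and 6 lower (21.4%), with a median log2 fold change of 0.13, close to the background shares. *IFH1*, the coactivator brought in by Fhl1, had 3587, 3368 and 2486 normalized counts in wild type and 6164, 5585 and 5956 in *dbp2Δ* (log2 fold change 0.91, edgeR adjusted p = 0.00519). *SFP1* rose by 0.77 (edgeR adjusted p = 0.00258). Also called higher were *TOD6* (0.72), *UTP22* (0.69), *TOR2* (0.46), *MRS6* (0.45) and *TCO89* (0.44), in log2 fold change. *RAP1* (-0.22) and *FHL1* (0.25) did not pass the test. The protein kinase A gene *TPK2* and the regulatory subunit gene *BCY1* fell by 1.74 and 1.16 on the log2 scale. In wild-type replicate 3, where the small subunit genes were high, *IFH1* was at its lowest of the 3 wild-type libraries, and the 28 regulators had a median of -0.17 against replicates 1 and 2.

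Of 49 factors that assemble the 40S subunit or escort its proteins, 14 were called higher (28.6%, background 20.0%) and 1 lower (2.04%, background 21.9%), with a median log2 fold change of 0.30. *RIO1*, a kinase of late 40S maturation, rose by 0.88 (edgeR adjusted p = 0.00297), and *UTP20*, of the processome that makes 18S rRNA, by 0.81 (edgeR adjusted p = 0.00812). The 1 that fell was *TSR4*, the chaperone of Rps2, at -0.50 (edgeR adjusted p = 0.00857). The assembly genes were lower in wild-type replicate 3 than in replicates 1 and 2 (median -0.34), opposite to the small subunit genes. Of 23 initiation factors and other partners of the 40S subunit, 1 was called higher (*SUI1*, 0.44, 4.35% against 20.0%) and 2 lower (*TIF4632* and *TIF35*, 8.70% against 21.9%), with a median of -0.10.

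The large subunit genes, measured the same way, had 14 of 81 called higher (17.3%, background 20.0%) and 0 lower, with a median log2 fold change of 0.49. Without wild-type replicate 3, 76 of 81 were called higher (background 25.7%). They thus shared the pattern of the small subunit genes across libraries, and no test separated the subunits.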

How the data were processed

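TT-seq RNA labeled with 4-thiouracil was biotinylated, enriched on streptavidin, depleted of rRNA and sequenced from directional libraries, 3 per strain. The authors deposited raw counts per gene (7032 genes) and, separately, raw counts for antisense transcripts. featureCounts, edgeR and build R64 appear, without versions, in the submitters' processing notes. The aligner, the strand setting and the handling of multiply mapped reads are not stated in these notes or the methods. A few antisense lines were not analysed here.

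edgeR 4.0.16 in R 4.3.3 was run on the counts (filterByExpr, TMM, glmQLFit, glmQLFTest), strain being the only factor, with Benjamini-Hochberg adjustment over all genes and a threshold of 0.05. Antisense counts were scaled by the library sizes of the genes. A to B ratios were compared by a two-sided exact permutation test over libraries. Alternatives used DESeq2 1.42.0, limma 3.58.1 (voom with quality weights), other scalings, no filter, the replicate block, a threshold of 0.01, 10 counts added in the ratio, and each library left out. Sequences and coordinates are from RefSeq R64, in which 5941 of the 7032 genes were found, and 2306 of 2309 antisense rows overlapped their gene on the opposite strand.

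The rule for the small subunit genes uses name and function alone, but this gene set and the lists were chosen for study with earlier results of these data known. Genes named in full were the called genes of largest change, those of smallest change, the highest and lowest levels per kb, the pairs of largest and smallest shift, genes with antisense transcripts, and *RPS3*, *RPS15*, *RPS31* and *ASC1*. *RPS7B*, *RPS29A* and the genes named from the lists were also chosen for their values. A few genes and pairs that meet this rule are not reported here, though they enter every count.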

Additional observations from a re-analysis of the deposited data

How the results depend on the processing

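The count of small subunit genes called higher (12) was 10 to 18 with DESeq2, library size alone, upper quartile scaling, TMM without ribosomal protein genes, no filter and the replicate block. These counts were 17.5% to 31.6% of the small subunit genes, against 16.1% to 22% of all genes tested in the same fits. The count was 49 with voom and quality weights (median log2 fold change 0.80), where wild-type replicate 3 had the lowest weight (0.249), and 2 at an adjusted p under 0.01 (9.21% of all genes tested). Leaving out 1 library gave counts from 4 to 56, medians from 0.35 to 0.94, and 0 to 3 antisense transcripts called. The count of shifted paralog pairs was then 15 to 20. That count cannot fall when a library is removed, so its range is no check on it. No alternative called a small subunit gene lower. Scaling by library size alone moved the median of all genes to 0.06, and that of the small subunit genes to 0.60.

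Estimates near 0 changed sign when a library was left out, and the cause was not tested. Their lowest and highest log2 fold changes over these fits were -0.093 and 0.46 for *RPS2*, -0.078 and 0.57 for *RPS4A*, -0.059 and 0.45 for *RPS4B*, -0.16 and 0.59 for *RPS8A*, -0.054 and 0.61 for *RPS17A*, -0.083 and 0.50 for *RPS20*, -0.10 and 0.53 for *RPS25A*, -0.28 and 0.14 for *RPS28A* and -0.50 and 0.41 for *ASC1*. Each highest value came without wild-type replicate 3. With voom, *RPS28A* was 0.0034 and *ASC1* 0.22.

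Deviations of same-numbered libraries from their strain means correlated at -0.08, -0.12 and 0.00 across genes. Those of differently numbered libraries correlated at -0.05 to 0.17. These values cannot show whether same-numbered libraries were prepared together. With the replicate block, 13 small subunit genes were called higher (median 0.61), 1 antisense transcript was called, and 958 genes of all tested were higher in place of 1187. Each small subunit gene had at least 720 counts in every library, and each strain had 3 libraries.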
